A study of Mus musculus with 6 samples.

Results

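The genes described here build the acrosome or take part in the meeting of sperm and egg. They were taken from a list of 44 names, which stand for 43 distinct mouse genes because equatorin was listed under 2 names. Of these, 42 had a probe on the array and 41 could be tested, among 17041 tested genes with a name in all. Dkk4, a secreted Wnt antagonist, gave signals between 11.4 and 33.9 over all arrays, was well above background on 2 of 6 arrays, and was not tested. The name Pdilp matched no gene symbol or synonym and has no value here.

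RNA from whole testis of 10-week-old C57BL/6J male mice was labelled with Cy3 and read on 1-colour Agilent arrays. The groups were 3 TAp73 knockout mice and 3 wild-type mice, with 1 array for each mouse. TAp73 denotes the long forms of the p53 family transcription factor p73; the allele's make and breeding were not given in the sources used here. Whole testis holds germ cells of every stage beside Sertoli, Leydig and immune cells, so that fewer cells of a type and less RNA per cell cannot be told apart in any value below.

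The acrosome is a secretory vesicle that round spermatids assemble from Golgi-derived vesicles and spread over the front of the nucleus. When it opens, the sperm releases enzymes and exposes membrane proteins, and Izumo1 on the sperm then binds Juno on the egg before the membranes fuse. Transcripts for these proteins are made in spermatocytes and round spermatids, and many are among the most abundant messages of the testis.

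The 6 arrays differed in ways that touch these genes. The share of probes well above background ran from 74.4% to 84.4%. Saturated probes, those where the scanner had reached its highest reading, made up 1.59% to 4.45% of an array. Correlations between arrays over probes were 0.987 to 0.996 within a group and 0.984 to 0.993 between groups. The array of knockout replicate 1 stood apart on the first principal component, which held 39.8% of the variance. Signals were lower in the knockout arrays as a whole: the 75th percentile of log2 signal, by which each array was scaled, averaged 12.41 in wild type and 12.15 in knockout. As a check of the labels, Trp73 probe A_52_P193555 read 605, 548 and 587 in wild type and 17.2, 4.81 and 5.17 in knockout, where 1 of 3 arrays was well above background. Trp73 fell at this probe (limma adjusted p = 0.00369). The fitted difference of -6.01 rests on a pair of knockout signals not well above background, so its size is uncertain. Trp73 probe A_55_P1988133 differed by -3.21 (limma adjusted p = 0.00213). Probe A_52_P410636, well above background on all 6 arrays, read 1077, 975 and 1061 in wild type and 566, 371 and 394 in knockout. Its difference was -0.99 (limma adjusted p = 0.0104), so signal remained there in knockout. The position of the deletion relative to the probes was not given in the sources used here. Group labels were taken from the scanner files; the submitters' value table carries the opposite labels, since each of the 6 scanner files matched best a table column of the other group (r = 0.831 to 0.986).

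Saturation was common in this gene set, and also in sets like it. Of 51 further acrosome and sperm-egg genes 18 were saturated on some array, and of 47 other spermatid genes 34. The lead probe, which is the brightest tested probe that is saturated on no array or otherwise the one saturated on the fewest arrays, reached saturation on some array in 13 of the 41 genes, or 31.7%, against 6.00% of all tested probes. For another 10 genes it came near the limit, with a median pixel of 50000 or more on some array. The remaining 18 genes, 43.9%, were within the range of the scanner, against 92.0% of all tested probes. All 41 lead probes were well above background on all 6 arrays. The dot plot of signals by array shows most of the saturated genes as a flat band at the top. The membrane and fusion genes and the hyaluronidases included no saturated gene, and the saturated Cylc2 varied widely between arrays.

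**Figure D1:**
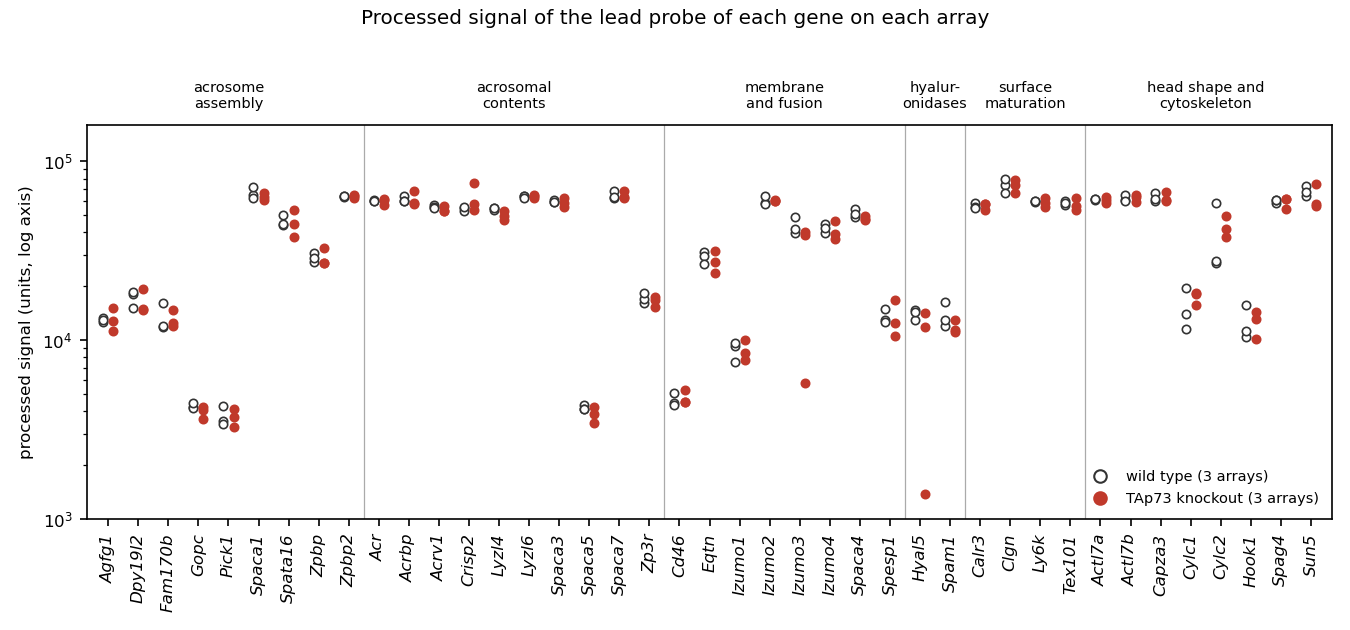
Processed signal (log axis) of the lead probe of each of the 41 tested genes on each of the 6 arrays, in order of role; open circles are the 3 wild-type arrays and filled red circles the 3 knockout arrays. Many genes lie in a band near the scanner limit, and the single low red circles of Hyal5 (1369) and Izumo3 (5784) both belong to knockout replicate 1.

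None of the 41 genes changed past the threshold, a Benjamini-Hochberg adjusted p under 0.05 in limma over all 31801 tested probes. The same fit called 2.88% of all tested probes, 2.64% lower and 0.248% higher in knockout. Counting each of the 50 tested probes of these genes also gave 0 calls in either direction. Without adjustment, 13 genes were higher and 0 lower at a limma p under 0.05, where 12.3% of all tested probes were higher and 10.9% lower. Of the 18 genes within range 5 were higher in this way and 0 lower, beside 10.9% and 11.8% of all tested probes in range. The smallest adjusted p was 0.0630, for Crisp2. In simulated data the test called 0 of 200 probes changed by a log2 difference of 0.5. The 0 calls here therefore do not show that differences of that size are absent.

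Although no gene passed, the differences leaned one way. Among the 18 genes within range the log2 difference, knockout minus wild type, was above 0 for 16, beside 56.6% of all tested probes in range. Over all 41 genes it was above 0 for 39 (59.6% of all tested probes). That count includes the 13 saturated genes, whose difference follows the scaling as described below. Cylc2 is the exception among them, since it was saturated on wild-type replicate 1 only and varied widely between arrays. Over the 28 genes with an unsaturated lead probe its median was 0.21, against 0.04 over all unsaturated probes. The arrays lay on 2 slides, and the median of these genes was 0.20 within slide 1 (2 arrays of each group) and 0.22 in the pair of arrays on slide 2. After scaling, all 3 knockout values lay above all 3 wild-type values for 17 of 41 genes and below them for 0, where 18.6% and 13.1% of all tested probes did so. Among the 18 genes within range the count was 7 higher and 0 lower, beside 16.7% and 14.1% of all tested probes in range. The median standard error of a lead probe was 0.10.

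**Figure D2:**
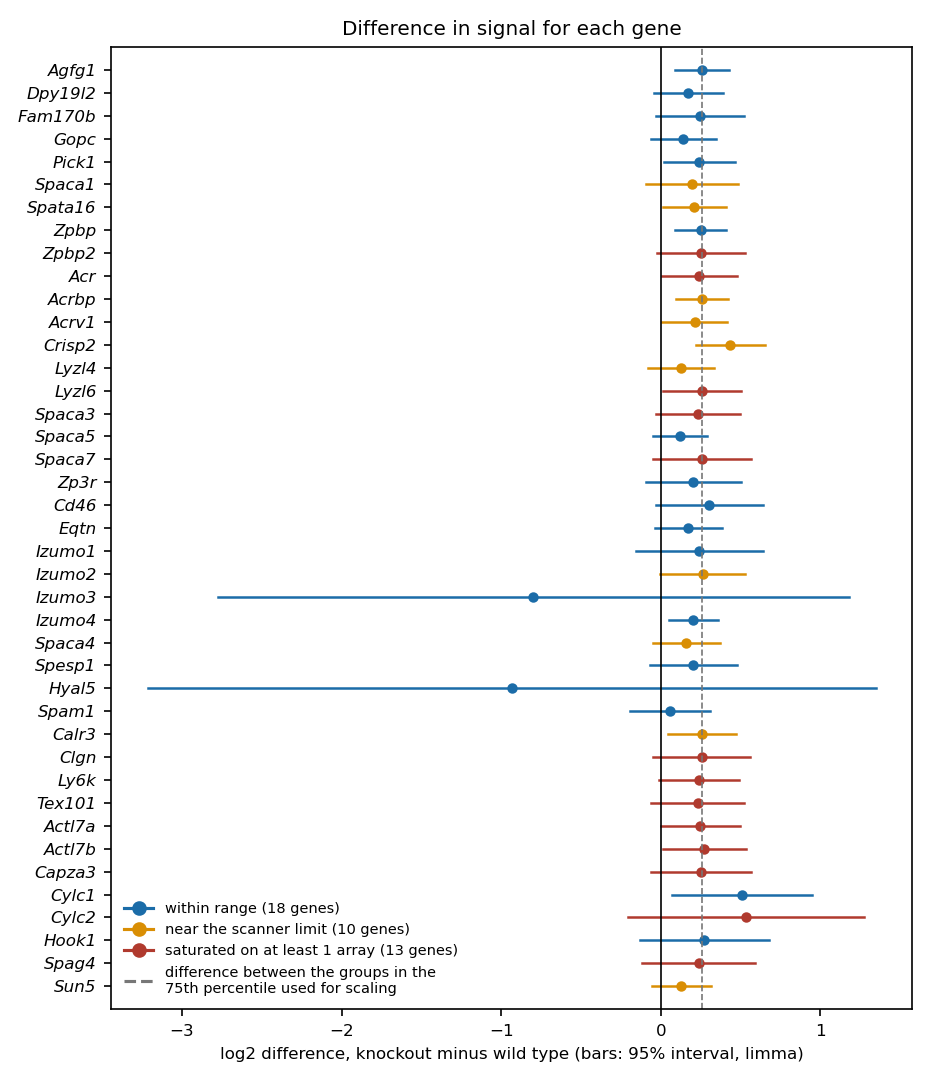
Log2 difference in signal, knockout minus wild type, for the lead probe of each of the 41 genes, with 95% intervals from limma; colours give the signal range and the dashed line marks 0.26, the amount by which the 75th percentile was higher in wild type. Most points sit between 0 and the dashed line or on it, and the intervals of Hyal5 and Izumo3 are by far the widest.

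The first group, of 9 genes, serves the assembly and anchoring of the acrosome. None of them passed the test. The 8 unsaturated ones were all higher in knockout, with a median difference of 0.23. Zpbp, a zona pellucida binding protein needed for a compact acrosome, read 30800, 27299 and 28731 in wild type and 32795, 26948 and 26874 in knockout. These signals overlap, and they separate only after scaling, to 2.41 ± 0.02 (SD, n = 3) against 2.66 ± 0.04 (SD, n = 3) log2 units above the 75th percentile. The difference for Zpbp was 0.25 (SE 0.07, 95% interval 0.09 to 0.41, limma adjusted p = 0.106).

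Agfg1, which lets proacrosomal vesicles dock and fuse, had the largest difference of this group. Its signals were 13311, 12567 and 12976 in wild type and 15088, 11235 and 12764 in knockout, and after scaling the groups did not overlap. The difference was 0.26 (SE 0.07, 95% interval 0.09 to 0.42, limma adjusted p = 0.111). Pick1, a PDZ protein of vesicle traffic, read 4301, 3523 and 3401 in wild type and 4119, 3266 and 3699 in knockout, with scaled groups that did not overlap and a difference of 0.24 (adjusted p = 0.196). Spata16, a Golgi protein of spermatids, read 50205, 44231 and 44407 against 53392, 37741 and 44387, near the scanner limit, with a difference of 0.21 (adjusted p = 0.199).

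The lowest value of the assembly group was that of Gopc, a Golgi protein whose loss in mice leaves sperm without an acrosome. It read 4233, 4153 and 4473 in wild type and 4223, 3609 and 4056 in knockout, and the scaled groups overlapped (0.14, adjusted p = 0.328). Dpy19l2, which anchors the acrosome to the nuclear envelope, differed by 0.17 and Fam170b, an acrosomal protein, by 0.25, neither past the threshold. Spaca1, an acrosomal membrane protein, had a lead probe near the limit (0.20, adjusted p = 0.342). Zpbp2, the paralogue of Zpbp, was saturated on 5 arrays at both of its probes, so no size of a difference is read for it.

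The contents of the acrosome were represented by 10 genes, none past the threshold. The 6 unsaturated ones were all higher in knockout, with a median of 0.21. Crisp2, a cysteine-rich secretory protein of the acrosome and tail, read 54957, 52673 and 55382 in wild type and 75438, 57365 and 53650 in knockout. After scaling its groups were apart, at 3.32 ± 0.04 (SD, n = 3) and 3.76 ± 0.13 (SD, n = 3). Its difference of 0.44 (SE 0.09, 95% interval 0.22 to 0.65, limma adjusted p = 0.0630) was the largest among the unsaturated contents genes. It was past the threshold (adjusted p = 0.0465) only where probes not well above background on all 6 arrays were left out of the test. The probe came near the scanner limit, and its spot on the array of knockout replicate 1 lay in an area of disturbed signal described below; with such areas left out the difference was 0.38 (adjusted p = 0.0964).

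Acr encodes acrosin, the main serine protease of the acrosome, and Acrbp the protein that binds its precursor. Acr was saturated on 3 arrays and read 56666 to 61458 over all 6, which gives only a lower limit to its level. The lead probe of Acrbp, near the limit, read 64137, 59670 and 59889 in wild type and 67768, 57732 and 58515 in knockout (0.26, adjusted p = 0.104). The scaled groups of both genes did not overlap. Acrv1, an acrosomal vesicle protein, read 56967, 55436 and 54664 against 56478, 52951 and 52453, overlapping before scaling and apart after it (0.21, adjusted p = 0.209).

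Among the lysozyme-like proteins of the acrosome, Spaca5 was the only one within range, with 4354, 4112 and 4124 in wild type and 4201, 3431 and 3849 in knockout. Its scaled groups did not overlap, and its difference of 0.12 (SE 0.07, adjusted p = 0.324) was the smallest of the group. The lead probe of Lyzl4 lay near the limit (0.13, adjusted p = 0.388), and Lyzl6 and Spaca3 were saturated on 4 and 5 arrays; the scaled values of Lyzl6, which read 62517 to 64469, did not overlap. Zp3r, an acrosomal matrix protein within range, read 16153, 16941 and 18326 in wild type and 16794, 17397 and 15378 in knockout (0.21, adjusted p = 0.343). Spaca7 was saturated on 5 arrays.

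Membrane and fusion proteins made up 8 tested genes, of which 7 were higher in knockout and 1 lower, none past the threshold (median 0.20). Izumo1, the sperm protein that binds Juno, read 9238, 7506 and 9677 in wild type and 8473, 9954 and 7697 in knockout. The groups overlapped before and after scaling, and the difference was 0.24 (SE 0.16, 95% interval -0.16 to 0.64, adjusted p = 0.392). That interval leaves room for a moderate difference in either direction. Among its paralogues, Izumo4 had closely matching replicates: 44364, 39728 and 42237 in wild type and 46087, 36908 and 39121 in knockout became 2.95 ± 0.01 (SD, n = 3) and 3.16 ± 0.00 (SD, n = 3) after scaling. The difference for Izumo4 was 0.20 (SE 0.06, 95% interval 0.05 to 0.36, limma adjusted p = 0.140). Izumo2, near the limit, differed by 0.26 (adjusted p = 0.220).

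Cd46, a complement regulator that in mice is found on the acrosomal membrane, had the highest value of the membrane group. Its signals were 4440, 4338 and 5068 in wild type and 4514, 4531 and 5251 in knockout, overlapping after scaling (0.30, SE 0.14, adjusted p = 0.244). Spaca4, a GPI-anchored surface protein near the limit, read 54215, 48766 and 50761 against 49298, 46951 and 47291, and its scaled groups did not overlap (0.16, adjusted p = 0.296). Spesp1, a protein of the equatorial segment where fusion begins, differed by 0.20 (adjusted p = 0.301).

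Equatorin, Eqtn, is a membrane protein of the acrosome, and its 2 probes disagreed in sign. The lead probe read 30948, 29632 and 26455 in wild type and 31348, 23790 and 27184 in knockout, with scaled groups that did not overlap (0.17, adjusted p = 0.273). The other Eqtn probe read 21210, 19139 and 16814 against 19148, 14150 and 14156, with a difference of -0.02 (adjusted p = 0.921). Neither value was past the threshold.

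The only lead probes with a negative difference were those of Hyal5 and Izumo3, and in both a single array set the sign. Hyal5 is a sperm hyaluronidase that loosens the cumulus cells around the egg. It read 14702, 12900 and 14356 in wild type and 1369, 14105 and 11807 in knockout, where replicate 1 was far below all other arrays (-0.93, SE 0.94, adjusted p = 0.558). Without knockout replicate 1 the difference for Hyal5 was 0.24. Spam1, the other sperm hyaluronidase, showed no such drop, with 16271, 11939 and 12915 in wild type and 13023, 11402 and 11142 in knockout (0.06, SE 0.10, adjusted p = 0.751).

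Izumo3, which is needed for the acrosome to form properly, repeated the pattern of Hyal5. Its lead probe read 49059, 39557 and 41887 in wild type and 5784, 40441 and 38574 in knockout (-0.80, SE 0.82, adjusted p = 0.564), and 0.22 without knockout replicate 1. The other Izumo3 probe, elsewhere on the array, read 16058, 15082 and 17224 against 16895, 14390 and 13472, with no low array and a difference of 0.14 (adjusted p = 0.340). One Acrbp probe, A_52_P510179, also dropped on that array, to 4799 against 10460 and 12324 in the other knockout mice and 22180, 12162 and 12400 in wild type (-0.55, adjusted p = 0.477). The other Acrbp probes were both at 0.26.

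These 3 probes lay close together on the array surface. Of 34122 probes compared, 531 were over 2-fold below all other 5 arrays on the array of knockout replicate 1. Of the 531, 514 (96.8%) fell in 4 of 70 blocks of the spot grid, in rows 457 to 532 and columns 52 to 85, which held 4.90% of the spots. Within those blocks 30.7% of the spots were low in this way, and 0.0524% elsewhere. Blocks with at least 5% of low spots were then left out on each array. The differences became 0.24 for Hyal5 (limma adjusted p = 0.359) and 0.20 for Acrbp probe A_52_P510179 (limma adjusted p = 0.305). For both of these probes wild-type replicate 1 was left out too, where 8.85% of the spots of the block were low. The Izumo3 lead probe became 0.14. Its block was also left out on knockout replicate 2 (17.4% low), so only knockout replicate 3 stood for the knockout group. The 4 blocks of knockout replicate 1 held 5 of the probes of this gene set. The remaining 2, of Crisp2 and Hook1, were not low there.

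**Figure D3:**
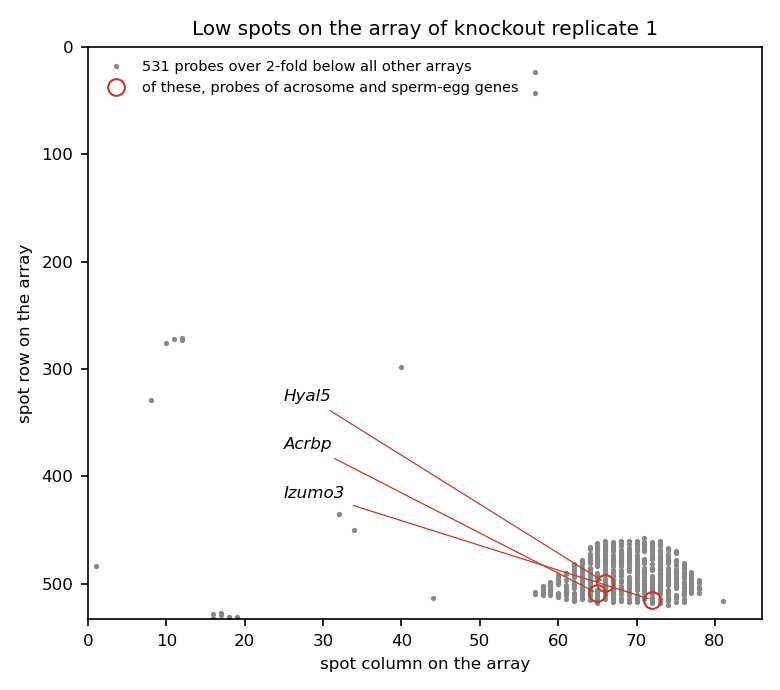
Position on the array of knockout replicate 1 (spot column against spot row) of the 531 probes that were over 2-fold below all other 5 arrays; red rings mark the probes of Hyal5, Izumo3 and Acrbp. Of the 531 low probes 514 lie in the blocks at rows 457 to 532 and columns 52 to 85, where all 3 rings are, and the others are scattered or in small groups elsewhere.

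Surface maturation, the folding and transport of the proteins that let sperm pass the oviduct and reach the zona, was represented by 4 tested genes, none past the threshold, of which 3 were saturated. Calr3, a testis form of the chaperone calreticulin, was the only one with an unsaturated lead probe, which read 58333, 55380 and 55070 in wild type and 57859, 53088 and 57902 in knockout (0.26, adjusted p = 0.165). The second Calr3 probe lay well within range, at 22794, 21361 and 19281 in wild type and 24020, 21464 and 23413 in knockout. Its scaled groups were 1.96 ± 0.11 (SD, n = 3) and 2.34 ± 0.11 (SD, n = 3), a difference of 0.38 (SE 0.09, 95% interval 0.15 to 0.61, limma adjusted p = 0.0963). Clgn, the chaperone calmegin, was saturated on 5 arrays, and Ly6k and Tex101, a pair of GPI-anchored proteins, on 4 each. Pdilt, a testis disulfide isomerase whose name resembles Pdilp, is not on the list and was looked up after the other values were seen; its probe near the limit differed by 0.20 (adjusted p = 0.296).

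The last group holds 8 genes of head shape and cytoskeleton, none past the threshold. The lead probe was saturated for 5 of them, and the other 3 were higher in knockout (median 0.27). Cylc1 encodes cylicin, a basic protein of the calyx under the acrosome, and had the highest positive difference of the genes within range. It read 19526, 13910 and 11498 in wild type and 18193, 15762 and 18355 in knockout, and the scaled groups were 1.43 ± 0.35 (SD, n = 3) and 1.94 ± 0.13 (SD, n = 3) without overlap. The difference was 0.51 (SE 0.18, 95% interval 0.07 to 0.95, limma adjusted p = 0.178). The spread came mostly from wild type, whose replicate 1 (1.78) lay just below the lowest scaled knockout value (1.82).

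Cylc2, the second cylicin, was saturated on wild-type replicate 1 and read 58659, 26922 and 27766 in wild type and 41883, 49217 and 37912 in knockout. Since that reading is capped, no size of a difference is read for Cylc2. Before scaling the saturated array read higher than every knockout array. Its reading is a lower limit, so its place among the scaled values is not known. Hook1, a microtubule-binding protein of the spermatid manchette, read 15713, 10435 and 11300 against 13156, 10177 and 14284 (0.27, adjusted p = 0.346). Wild-type replicate 1 was the highest of the wild-type arrays for all 3 of these genes.

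Sun5, a SUN-domain protein of the nuclear envelope that joins head and tail, read 72474, 64142 and 67456 in wild type and 74799, 57352 and 55940 in knockout, near the limit. The scaled groups did not overlap and the difference was 0.13 (adjusted p = 0.331), the lowest of the group. Actl7a and Actl7b, actin-like proteins of the subacrosomal region, were saturated on 6 and 5 arrays. Actl7a read 61538, 60630 and 61314 in wild type and 60462, 58565 and 63153 in knockout, and although its scaled groups did not overlap these readings bound the level from below only. Capza3, a capping protein of actin filaments, was saturated on 5 arrays and Spag4, another SUN-domain protein, on 4.

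Saturated probes carry the scaling in their difference. A spot at the scanner limit reads nearly the same on every array: in log2 units the limit was 15.94 in both groups. Since the 75th percentile was 0.26 higher in wild type, such a spot stands about that much higher in knockout after scaling. The 13 saturated genes had a median difference of 0.25 after scaling and -0.01 without it. The genes within range, which are not tied in this way, had a median of 0.21 after scaling and -0.05 without it.

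Bright probes as a whole also leaned toward knockout. Over all tested probes the median difference was -0.01 at mean signals of 256 to 1024, 0.09 at 8192 to 16384 and 0.14 at 32768 to 46341. Among probes of 8192 to 16384, 70.6% were above 0, and 7 of the 8 acrosome and sperm-egg genes at that level were. The median of those 8 genes was 0.24, and the 90th percentile of all probes at that level was 0.27. In the brightest class, where 94.7% of probes were saturated, 98.7% of all probes and 17 of 17 of these genes were above 0. How much of the lean of this gene set goes with its brightness was not tested.

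**Figure D4:**
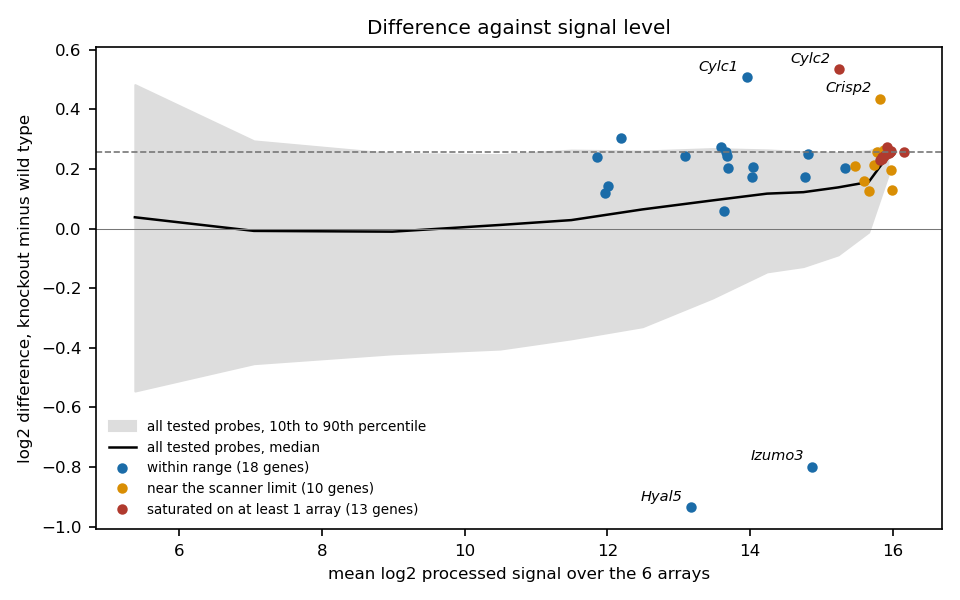
Log2 difference, knockout minus wild type, against mean log2 signal for the 41 lead probes (colour: signal range); the black line is the median and the grey band the 10th to 90th percentile of all tested probes, and the dashed line marks 0.26. The median of all probes climbs with signal, and most of the coloured points lie above it, with Hyal5 and Izumo3 far below the band and Cylc1, Crisp2 and the saturated Cylc2 above it.

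The size and, in places, the sign of the shared difference moved with the scaling. For the 18 genes within range the median was 0.27 with median scaling, 0.15 with quantile normalisation, 0.16 when arrays were scaled to 6 spike-in probes, 0.19 with normexp background correction and -0.05 with no scaling. Over all tested probes in range the medians under the same settings were 0.10, 0.05, -0.01, 0.21 and -0.22. Under normexp the genes thus lay just below all probes, and under the others above them. Scaled to other spermatid genes, these genes had a median of 0.00 (all tested probes in range: -0.17). The other spermatid genes within range, 8 genes of the tail, chromatin and metabolism of spermatids, had a median of 0.20 under the main scaling and followed the acrosome genes under each of these settings.

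**Figure D5:**
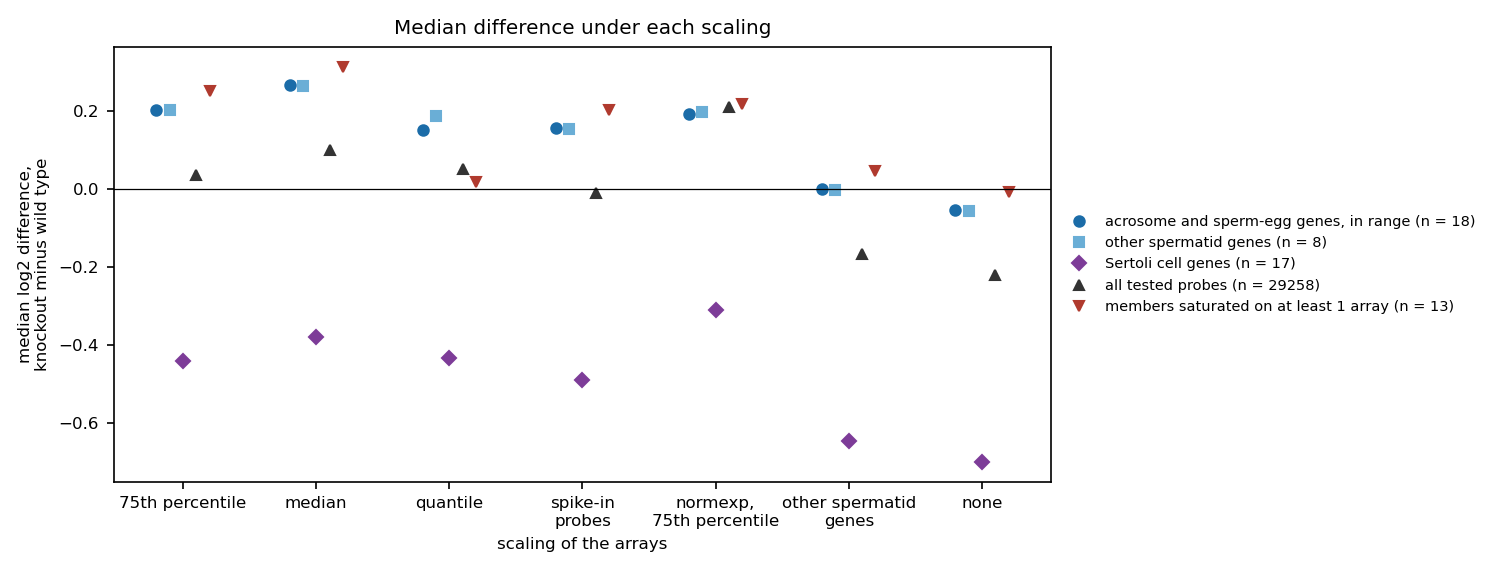
Median log2 difference, knockout minus wild type, under 7 ways of scaling the arrays (x axis) for the 18 acrosome and sperm-egg genes in range, 8 other spermatid genes in range, 17 Sertoli cell genes, all tested probes in range, and the 13 genes saturated on at least 1 array (called members in the key). Both spermatid groups stay close together, above 0 under 5 scalings, near 0 when scaled to spermatid genes and at -0.05 and -0.06 with none, and the Sertoli cell genes are lowest under each. Apart from quantile and normexp, the scalings differ by 1 value per array, so the gaps between groups are fixed there.

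Genes of other testis cells were measured on the same arrays. Sums below are of signals before scaling, which were lower in knockout arrays as a whole (75th percentile of log2 signal 12.15 against 12.41). Calls and differences are after scaling. Of all tested probes 2.64% were called lower, 0.248% were called higher and 59.6% were above 0. Saturation also caps the spermatid sums, so the sums alone do not give the content of any cell type. Of 47 other spermatid genes 0 were called, 47 were above 0 and 34 were saturated. The count above 0 includes these 34, which the scaling raises in knockout as described above. The 8 within range were also above 0, beside 56.6% of all tested probes in range. The summed signal of the 47 was 2594800 to 2638920 in wild type and 2579230 to 2595500 in knockout. Of 22 spermatocyte genes 0 were called, with a median of 0.13 over the 17 unsaturated ones; their sums, 521666 to 529143 and 497473 to 551676, overlapped. Of 18 Sertoli cell genes 4 fell, Sox9, Gata1, Vim and Aard, and 16 were below 0; their sums were 277871 to 284129 in wild type and 178809 to 217016 in knockout. Of 11 macrophage genes 4 fell, Cd74, C1qc, Lyz1 and Cd14, and their sums were 98987 to 111060 against 82167 to 94664. Of 9 Leydig cell genes 1 fell, Hsd3b1, and 3 were above 0 and 6 below (sums 137939 to 184591 and 96259 to 124802). Among these genes, the probe of Cyp17a1 lay in the disturbed area of knockout replicate 1, where it was over 2-fold below all other arrays. It also lay in a block left out on knockout replicate 2. The Leydig sums in knockout therefore hold a disturbed spot. Of the defining markers, Insl3 of Leydig cells and Cd68 of macrophages had 0 probes. The markers Odf1, Akap4, Prm1, Tnp1, Sycp3, Spo11, Sox9, Gata1, Wt1, Star, Cyp17a1, Adgre1 and Csf1r were well above background on all 6 arrays. Of the epididymal markers, Crisp1 was too, and Lcn5 and Defb12 on 0 arrays. The part of a changed share of these cells in the difference of the acrosome genes was not tested.

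A further 55 genes with known roles in the acrosome reaction, zona binding or fusion were set beside the list. Of the 51 that could be tested 1 fell and 0 rose, a share no larger than the 2.64% of all tested probes that were called lower. The median over the 33 unsaturated ones was 0.13. Without adjustment, 14 were higher and 1 lower at a limma p under 0.05, where 12.3% of all tested probes were higher and 10.9% lower. Of the 30 within range 7 were higher in this way, beside 10.9% of all tested probes in range. The gene that fell was B4galt1, a galactosyltransferase that on sperm has been proposed as a receptor for the zona and that many other cells also make. It read 5905, 6139 and 6662 in wild type and 3846, 3129 and 3186 in knockout, with no overlap, and fell by 0.63 on the log2 scale (SE 0.09, 95% interval -0.84 to -0.42, limma adjusted p = 0.0235). A second, much dimmer B4galt1 probe differed by 0.06 (adjusted p = 0.593). The call of B4galt1 held without wild-type replicate 1 (adjusted p = 0.0315) and was lost without any other array, with differences of -0.64 to -0.58 and adjusted p of 0.0613 without knockout replicate 1, 0.0950 without knockout replicate 2, 0.104 without knockout replicate 3, 0.121 without wild-type replicate 2 and 0.0797 without wild-type replicate 3 in limma. It was also lost with the slide as a block (adjusted p = 0.0647), with the replicate block (0.131) and within slide 1 (0.376), at differences of -0.63, -0.63 and -0.59.

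Others of that list resembled the genes above. Csnk2a2, a casein kinase 2 subunit needed for a normal sperm head, differed by 0.30 (adjusted p = 0.110). Adam3, the sperm surface protein that Clgn, Calr3, Ly6k and Tex101 help to mature, differed by 0.31 (adjusted p = 0.185). Spaca6 and Dcst1, which act with Izumo1 at fusion, differed by 0.24 and 0.20, also not past the threshold.

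Promoter sequence was searched because CREM, the cAMP response element modulator, drives many spermatid genes through the element TGACGTCA, and because p73 binds the p53 family decamer, a 10-base motif of which a pair makes up a full response element. RefSeq windows of the GRCm38.p6 assembly, 250 bases before to 50 after each gene start, were held for 34 of the 43 genes, 40 windows in all. On either strand the full element was in 2 of 40 windows (5%), and in 1.79% of all 32851 windows searched. Its partial form TGACG, which overlaps the full element, was in 15 (37.5%) against 20.8% of all. The GC box GGGCGG was in 17 (42.5%) against 35.7%, and the p53 family decamer in 2 (5%) against 8.36%. These are matches of letters and not measured binding. The 250 bases before the start are shown for the genes that hold the full element (capitals mark it and nothing else), Izumo1 at chr7:45621561-45621810 (plus strand) and Spag4 at chr2:156064963-156065212 (plus strand), since Izumo1 is the fusion protein itself.
Izumo1: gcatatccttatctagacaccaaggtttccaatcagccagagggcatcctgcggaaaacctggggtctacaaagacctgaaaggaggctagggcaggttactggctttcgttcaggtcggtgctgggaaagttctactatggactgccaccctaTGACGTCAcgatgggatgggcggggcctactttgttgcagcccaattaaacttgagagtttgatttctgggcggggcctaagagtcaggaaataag
Spag4: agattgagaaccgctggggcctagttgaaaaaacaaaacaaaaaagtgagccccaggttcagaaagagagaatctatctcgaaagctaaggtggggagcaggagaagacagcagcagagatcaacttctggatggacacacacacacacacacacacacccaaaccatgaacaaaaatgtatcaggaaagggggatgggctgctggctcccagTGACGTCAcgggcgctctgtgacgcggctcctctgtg

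The windows that hold a p53 family decamer (in capitals) are those of Cd46, the highest gene of the membrane group, at chr1:195092249-195092498 (minus strand), and Actl7b at chr4:56741426-56741675 (minus strand). They are shown because TAp73 is the protein that the knockout lacks.
Cd46: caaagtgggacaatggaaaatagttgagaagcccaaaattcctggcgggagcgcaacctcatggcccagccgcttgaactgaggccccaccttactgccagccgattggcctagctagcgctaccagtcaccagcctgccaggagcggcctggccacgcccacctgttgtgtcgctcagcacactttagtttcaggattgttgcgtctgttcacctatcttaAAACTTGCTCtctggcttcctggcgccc
Actl7b: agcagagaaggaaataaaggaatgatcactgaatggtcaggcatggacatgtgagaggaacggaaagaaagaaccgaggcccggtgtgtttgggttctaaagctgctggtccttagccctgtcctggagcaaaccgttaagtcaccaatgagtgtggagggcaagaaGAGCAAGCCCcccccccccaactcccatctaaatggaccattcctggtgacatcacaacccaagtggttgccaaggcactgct
In Cd46 the decamer began 28 bases before the gene start and in Actl7b 83 bases before it, and the full element began 96 bases before the start in Izumo1 and 37 in Spag4. Cd46 differed by 0.30 and Izumo1 by 0.24, neither past the threshold, and Actl7b and Spag4 were saturated.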

How the data were processed

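Deposited files were the 6 scanner outputs, with intensity per spot as the authors' software, Agilent Feature Extraction, wrote it (processed signal: background-subtracted and spatially detrended, per the file headers), and 1 value table of normalized intensity deposited by the authors, with further steps not given in the sources used here. Its column medians were 554.0 to 554.2; its direction was found to be opposite to the labels of the scanner files and its scaling beyond that is unknown, so it served as an alternative only.

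Here log2 of the processed signal minus its 75th percentile on each array was used. Spots flagged as non-uniform or as population outliers were set to missing (163 to 280 per array) and spots of 1 probe were averaged. Probes well above background on at least 3 of 6 arrays, with at least 2 values in each group, entered lmFit and eBayes of limma 3.58.1 (R 4.3.3), a two-sided test with group alone in the model and Benjamini-Hochberg adjustment over all 31801, threshold 0.05. "Lead probe" and "near the limit" are defined in the results; the limit of 50000 was chosen after seeing the data. Probes were named by matching accessions to RefSeq. Every listed gene is named by its lead probe; values in every array are given for genes whose groups did not overlap, for the extremes of each role and for probes that disagreed. The scripts were tested on simulated data with 200 changed probes, of which 0 were called at a log2 difference of 0.5, 134 at 1 and 182 at 2. The number of arrays limits the precision, and since labels name 1 sample a mouse, p-values measure the spread between these mice.

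Members and lists were chosen with earlier results of these data known. Replicate numbers did not pair the arrays (correlations of deviations -0.03, -0.08 and -0.09). Alternatives were other scalings and background corrections, filters, slide (2 slides, with a scan each) and replicate blocks, leaving out each array, and, added after seeing the data, spike-in scaling, low array areas left out and genes near the limit left out. Normexp used the median spot signal. A comparison of protein sequences was not run.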

Additional observations from a re-analysis of the deposited data

How the results depend on the processing

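For the listed genes 0 calls were made under each alternative except the filter that asked for all 6 arrays well above background, with 1 gene and 1 probe (Crisp2) called higher. Of 930 values of a gene under a setting, 97 changed sign, none of them past the threshold. The 930 include the value table as labelled, whose opposite labels by themselves reverse the sign of a difference. The median over the 28 unsaturated genes moved to -0.0499 with no scaling, 0.00412 scaled to other spermatid genes and -0.10 in the value table as labelled; it was 0.20 within slide 1 and 0.22 in the pair of arrays of slide 2. Over all tested probes, lower and higher calls were 349 and 13 with no filter, 2043 and 13 with no scaling, 0 and 0 with normexp (at an unadjusted p under 0.05 in limma, 810 and 1075), 3878 and 32 scaled to other spermatid genes, 367 and 11 scaled to spike-in probes, 299 and 15 with a slide block, 217 and 877 in the value table as labelled and 0 and 0 within slide 1 (1813 and 1336 unadjusted in limma). Lower calls were 405 with normexp and quantile normalisation. Higher calls were 143 with median scaling, 217 with quantile normalisation and with the value table's labels exchanged, 39 with a random slide block, 131 with low array areas left out and 165 with the filter on all arrays. Leaving out 1 array gave 117 to 418 lower and 7 to 28 higher calls. With the replicate block there were 9 lower and 1 higher calls, and 0 among the listed genes. Of the further acrosome genes, lower calls went from 1 to 0 with no filter, normexp, normexp and quantile normalisation, the replicate block, spike-in scaling, the slide block, the value table as labelled (1 higher), within slide 1, and in the fits without 1 array (0 to 1), and to 2 scaled to other spermatid genes.

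Trp73 probes A_52_P193555, A_52_P410636 and A_55_P1988133 lost their calls with normexp (-1.88, -0.63 and -0.90, adjusted p = 0.537 each in limma) and within slide 1 (-5.77, -0.96 and -3.07; adjusted p = 0.182, 0.280 and 0.111), and the first 2 with the replicate block (-6.01 and -0.99; adjusted p = 0.0686 and 0.0927). Without 1 array A_52_P410636 lay between -1.09 and -0.94 and lost its call without knockout replicate 2 or 3 (adjusted p = 0.0564 each in limma) and without wild-type replicate 2 (0.0658). In the value table as labelled all 3 reversed, to 6.01, 0.94 and 3.18. The cause of these moves was not tested, other than that within slide 1 and without 1 array fewer samples entered, and that the value table carries the opposite labels. Leaving out genes near the limit gave a median of 0.21. Saturation limits what 13 genes can show.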
